A study of Mus musculus with 3 samples.

Results

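The genes followed here are 46 members of the ATF4 amino acid response and of serine synthesis, of 22706 genes listed in the RNA-seq files. They were chosen by name, as genes commonly reported to be induced through the transcription factor ATF4, and fall by role into 13 regulators and stress effectors, 7 enzymes of serine synthesis and mitochondrial folate metabolism, 6 other enzymes of amino acid metabolism, 8 amino acid transporters and 12 genes of tRNA charging and tRNA export. The choice was made with earlier results of these data known. All 46 were found in the files. Of these, 45 passed the filter for comparison, which asked for at least 1 FPKM (fragments per kilobase of transcript and per unit of mapped fragments) in at least 1 library and a RefSeq transcript of at least 300 nt. The exception was the transporter gene Slc7a3, which stayed below 1 FPKM in all 3 libraries. For 2 of the 45, Ddit3 and Fgf21, the filter was passed in the library labelled shKSRP alone.

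The 3 libraries were made from polyadenylated RNA of C2C12 cells, a mouse mesenchymal precursor line that can form muscle or, with bone morphogenetic protein, osteoblast-like cells. One library is labelled shKSRP and a KSRP knockdown, with no added agent, in growth medium with 20% serum. KSRP is an RNA-binding protein that promotes decay of mRNAs with AU-rich elements. The second, called the BMP2 library below, came from mock-transfected cells in differentiation medium with 2% horse serum and recombinant BMP2, for which the protocol gives 100 to 300 ng/ml. The library set against both came from mock-transfected cells with no added agent in growth medium with 20% serum. Each group is 1 library of a single cell line, so differences could not be set against a spread between replicates and carry no p-value. BMP2 and the change of medium came together in the same library, and their contributions cannot be told apart. In bulk RNA, fewer cells that express a gene and less of its mRNA per cell cannot be told apart either.

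ATF4 is made when the initiation factor eIF2 is phosphorylated, for example by GCN2 under amino acid shortage or by PERK under stress of the endoplasmic reticulum, because upstream reading frames in the Atf4 mRNA then let ribosomes reach the main frame. ATF4 pairs with C/EBP and other bZIP proteins on composite promoter elements and induces genes for amino acid uptake, amino acid synthesis and the charging of tRNAs. Serine is made from a glycolytic intermediate by PHGDH, PSAT1 and PSPH, and the mitochondrial enzymes SHMT2, MTHFD2, MTHFD1L and ALDH1L2 carry its side-chain carbon through folate. In growing muscle precursors these products feed protein, glutathione and nucleotide synthesis.

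One feature the choice of genes did not use by rule is the composite C/EBP-ATF element TGATGNAA in the promoter. It was searched on both strands in the 300 bases from 250 before to 50 after each start, with RefSeq sequence of the GRCm38.p6 build, which is not the mm9 build of the expression files. A promoter entry was matched for 36 members. The other 10 are Aldh1l2, Nars, Lars, Cars, Slc1a5, Eif4ebp1, Slc7a3, Wars, Cth and Slc7a5. The element was present in 14 of 36 members (38.9%), against 243 of 9062 compared genes with an entry (2.68%), these members included, and 1304 of all 32851 promoters (3.97%). Part of what is known of this element came from genes such as Asns, Chac1, Trib3 and Atf3, so the share is not independent of the choice of members. By role it was found in 6 of 12 regulators (Atf3, Nupr1, Trib3, Chac1, Fgf21 and Vldlr), 2 of 5 other amino acid enzymes (Asns and Pycr1), 2 of 5 transporters (Slc7a11 and Slc1a4), 4 of 8 genes of tRNA charging and export (Aars, Gars, Iars and Tars) and 0 of 6 serine and folate enzymes.

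A selection of 10 elements is printed below with 16 bases on either side, 5′ to 3′ on the strand that reads TGATGNAA, the element in capitals. The first 6 belong to the members with an element that were lower by at least 2-fold with BMP2 over mock (for Pycr1 through a listed 0), and the other 4 to members with an element that were not.
Chac1 (chr2:119351033-119351072, minus strand): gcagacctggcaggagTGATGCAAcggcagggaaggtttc
Trib3 (chr2:152344023-152344062, plus strand): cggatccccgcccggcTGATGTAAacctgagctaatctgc
Asns (chr6:7693209-7693248, minus strand): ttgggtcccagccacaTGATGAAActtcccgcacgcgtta
Atf3 (chr1:191183420-191183459, plus strand): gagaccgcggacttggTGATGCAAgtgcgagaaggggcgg
Aars (chr8:111033714-111033753, minus strand): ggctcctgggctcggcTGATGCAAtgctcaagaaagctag
Pycr1 (chr11:120643828-120643867, minus strand): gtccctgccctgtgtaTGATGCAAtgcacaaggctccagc
Fgf21 (chr7:45615606-45615645, plus strand): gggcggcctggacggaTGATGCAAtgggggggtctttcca
Nupr1 (chr7:126625557-126625596, plus strand): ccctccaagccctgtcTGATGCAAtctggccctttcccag
Slc7a11 (chr3:50443656-50443695, minus strand): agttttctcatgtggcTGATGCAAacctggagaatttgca
Slc1a4 (chr11:20332694-20332733, plus strand): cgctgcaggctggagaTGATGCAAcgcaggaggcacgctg
Of 16 elements in the 14 promoters, 12 read TGATGCAA, 13 lay on the strand opposite to the gene, and 10 began within 120 bases before the start. Slc7a11 and Aars each held a pair of them. The whole 300-base windows of Chac1, the member with an element that was lowest against mock with BMP2 by log2 ratio among genes above 0, and of Slc7a11, which holds a facing pair and stayed near mock, are given on the strand of the gene, with every element in capitals.
Chac1 (chr2:119350992-119351291, plus strand): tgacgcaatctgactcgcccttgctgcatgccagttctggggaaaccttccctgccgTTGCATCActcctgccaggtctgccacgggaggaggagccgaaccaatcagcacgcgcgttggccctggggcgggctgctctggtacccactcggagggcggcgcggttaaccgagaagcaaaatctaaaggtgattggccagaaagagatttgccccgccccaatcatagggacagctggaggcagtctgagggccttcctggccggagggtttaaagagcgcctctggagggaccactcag
Slc7a11 (chr3:50443564-50443863, minus strand): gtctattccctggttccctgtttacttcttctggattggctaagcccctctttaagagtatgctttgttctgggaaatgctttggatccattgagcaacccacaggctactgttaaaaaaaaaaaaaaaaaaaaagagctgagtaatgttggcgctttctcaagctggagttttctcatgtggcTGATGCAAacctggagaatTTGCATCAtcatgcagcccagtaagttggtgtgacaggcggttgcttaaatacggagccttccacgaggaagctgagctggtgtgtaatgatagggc
In the Chac1 window the element reads on the opposite strand and begins at position −193 relative to the start. In the Slc7a11 window one copy reads with the gene at position −66 and its partner against it at position −47. Members with the element were called lower with BMP2 over mock in 6 of 14 cases (42.9%), and members with an entry but no element in 10 of 22 (45.5%). Among compared genes that are not members, 17 of 229 with the element (7.42%) and 765 of 8797 without it (8.70%) were lower. A match of letters is a description and not a measured binding site, and a window without a match says nothing of ATF4 binding elsewhere.

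FPKM of a gene was summed over its RefSeq transcripts and the transcripts that Cufflinks assembled in that library at the same locus. Values carry, after ±, the half-width of the gene's 95% interval, combined from the deposited bounds of its transcripts. It covers counting and assignment error only, with PCR copies not separated from independent molecules. Ratios are log2 ratios of FPKM + 1 with no rescaling, which understate changes of low genes, and a gene is called higher or lower where the ratio reached 2-fold (a log2 ratio of 1 in size), a rule of size and not a test. The interval widths correspond to 68.4 M (mega) fragments in the library labelled shKSRP, 60.3 M in the BMP2 library and 62.0 M in the mock library. Khsrp, the gene of KSRP (chromosome 17, 57160472 to 57170930, minus strand, mm9), was at 28.4 ± 0.64 FPKM in the library labelled shKSRP, 27.1 ± 0.67 in the BMP2 library and 31.4 ± 0.85 in the mock library. On RefSeq alone Khsrp was above mock in both libraries, at log2 ratios of 0.83 in the library labelled shKSRP and 0.77 with BMP2. At the mRNA level the label of a knockdown is therefore not borne out, since the mock-transfected BMP2 library was just as far from mock. Directions given below for the library labelled shKSRP stand under that reservation.

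All 6 myoblast markers were found, at a sum of 308 FPKM in the library labelled shKSRP and 261 with BMP2, against 366 in mock. Cdh15, the M-cadherin of muscle precursors, was at 31.1 FPKM in the library labelled shKSRP and 5.02 with BMP2, against 38.3 in mock, so it was lower with BMP2 (log2 ratio −2.71). Myf5, a myogenic factor of early precursors, was at 48.4 FPKM in the library labelled shKSRP and 9.09 with BMP2, against 7.75 in mock, so it was higher in the library labelled shKSRP (2.50). Pax7, the factor of satellite cells, was also called higher there, at 2.90 FPKM in the library labelled shKSRP and 0.463 with BMP2, against 0.118 in mock, though its signal there lay on assembled transcripts alone. Cdh15, Myf5 and Pax7 were all called higher in the library labelled shKSRP than with BMP2, the direction of most members given below. Myod1, at 34.8 FPKM in the library labelled shKSRP and 17.3 with BMP2, against 30.7 in mock, was called neither way, nor were Des and Myog. Of the 6 markers, 4 had a ratio above 0 in the library labelled shKSRP over BMP2. The other 2, Des and Myog, had a ratio below 0, the lowest at −0.71, so the markers did not share 1 direction. Of 4 fibroblast markers, Pdgfra and Dcn were detected above 1 FPKM, and their list summed to 8.95 FPKM in the library labelled shKSRP and 28.6 with BMP2, against 14.3 in mock. Pdgfra was at 2.07 FPKM in the library labelled shKSRP and 6.95 with BMP2, against 1.58 in mock, higher with BMP2 (1.62), and Dcn was at 6.88 FPKM in the library labelled shKSRP and 21.6 with BMP2, against 12.7 in mock, below 2-fold with BMP2 (0.72). Both were called lower in the library labelled shKSRP than with BMP2, opposite to most members. The other markers examined for fibroblasts, blood, endothelium, epithelium and glia (Thy1, Lum, Ptprc, Pecam1, Cdh5, Epcam, Krt8, Krt18, Gfap and Sox10) were at most 0.0613 FPKM. Lyz2 was at 3.98 FPKM in the library labelled shKSRP and 1.83 with BMP2, against 0.599 in mock, and the neuronal marker Map2 at 1.02 FPKM in the library labelled shKSRP and 0.0851 with BMP2, against 0.116 in mock. Krt14 was at 18.4 FPKM in the library labelled shKSRP and 264 with BMP2, against 114 in mock, and Tubb3 at 9.83 FPKM in the library labelled shKSRP and 92.8 with BMP2, against 98.0 in mock, both at loci shared with other genes. The part of these markers' cell types in the results below was not tested.

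The BMP2 library had the least mRNA of these genes. Its value was the lowest of the 3 libraries in 41 of 46 members, counting Ddit3, which was listed at 0 in mock too, and 32 members were highest in the library labelled shKSRP. For Psph and Pycr1 the lowest value was likewise a listed 0, in the BMP2 library alone. Intervals of the BMP2 library overlapped those of the next library for Slc7a3, Ddit4 and Cbs. Summed over the 46 genes, FPKM came to 3503 in the library labelled shKSRP, 1522 in the BMP2 library and 3173 in the mock library, which is 0.657%, 0.270% and 0.468% of the FPKM of all genes. The median member stood at 52.8 FPKM in the library labelled shKSRP, 16.8 FPKM in the BMP2 library and 38.1 FPKM in the mock library. The 5 members lowest in mock were Stc2, Vldlr, Slc7a11, Slc1a4 and Slc38a2, and the BMP2 library was highest for Slc7a11 and Slc38a2.

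**Figure D1:**
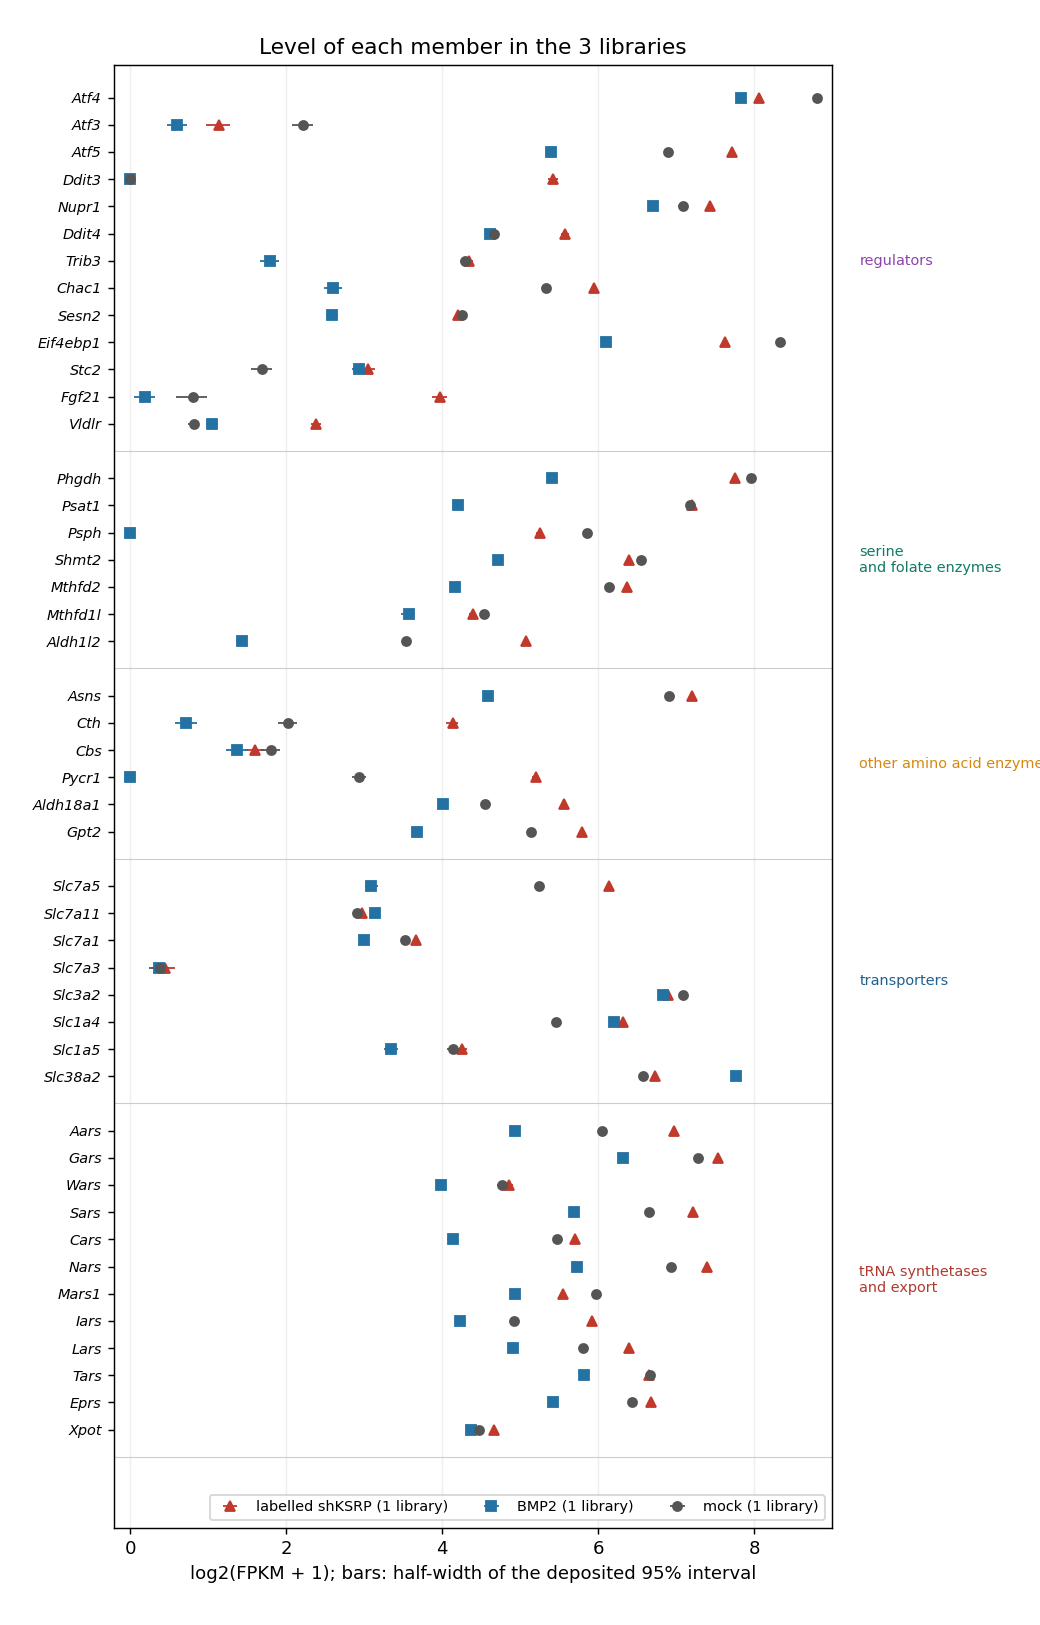
Level of each of the 46 members as log2(FPKM + 1) on the horizontal axis, in the library labelled shKSRP (red triangles), the BMP2 library (blue squares) and the mock library (grey circles), 1 library each; bars are half-widths of the deposited 95% interval. The blue square is leftmost in most rows, in 41 of 46 members, and Slc38a2 and Slc7a11 are the rows where it is rightmost.

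With BMP2, 22 of the 45 members compared were lower than in mock by at least 2-fold (48.9%), 2 were higher (4.44%, Stc2 and Slc38a2) and 21 passed in neither direction. Over all 11462 compared genes 8.95% were lower and 9.21% higher. The median log2 ratio of the members was −0.98, against 0.03 for all genes. Over mock, 8 members were higher in the library labelled shKSRP (Ddit3, Stc2, Fgf21, Vldlr, Aldh1l2, Cth, Pycr1 and Aldh18a1), 1 was lower (Atf3) and 36 passed in neither direction, where 11.0% of all genes were higher and 12.9% lower. The members' shares were 17.8% higher and 2.22% lower, and their median log2 ratio was 0.23 against −0.02 for all genes. Between these libraries, 28 members were higher in the library labelled shKSRP than with BMP2 and 1 was lower (Slc38a2), where 6.06% of all genes were higher and 8.65% lower, with medians of 1.53 for the members and −0.02 for all genes. The comparisons share libraries, so they are given side by side and not as support for each other. Since the members were chosen with earlier results of these data known, their shares are not independent of these data. Members listed at 0 underlie 1 of the calls of the library labelled shKSRP over mock (Ddit3), 2 of those of BMP2 over mock (Psph and Pycr1) and 3 of those between the library labelled shKSRP and BMP2. For these a ratio of FPKM + 1 depends on the added 1, and no fold is given.

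**Figure D2:**
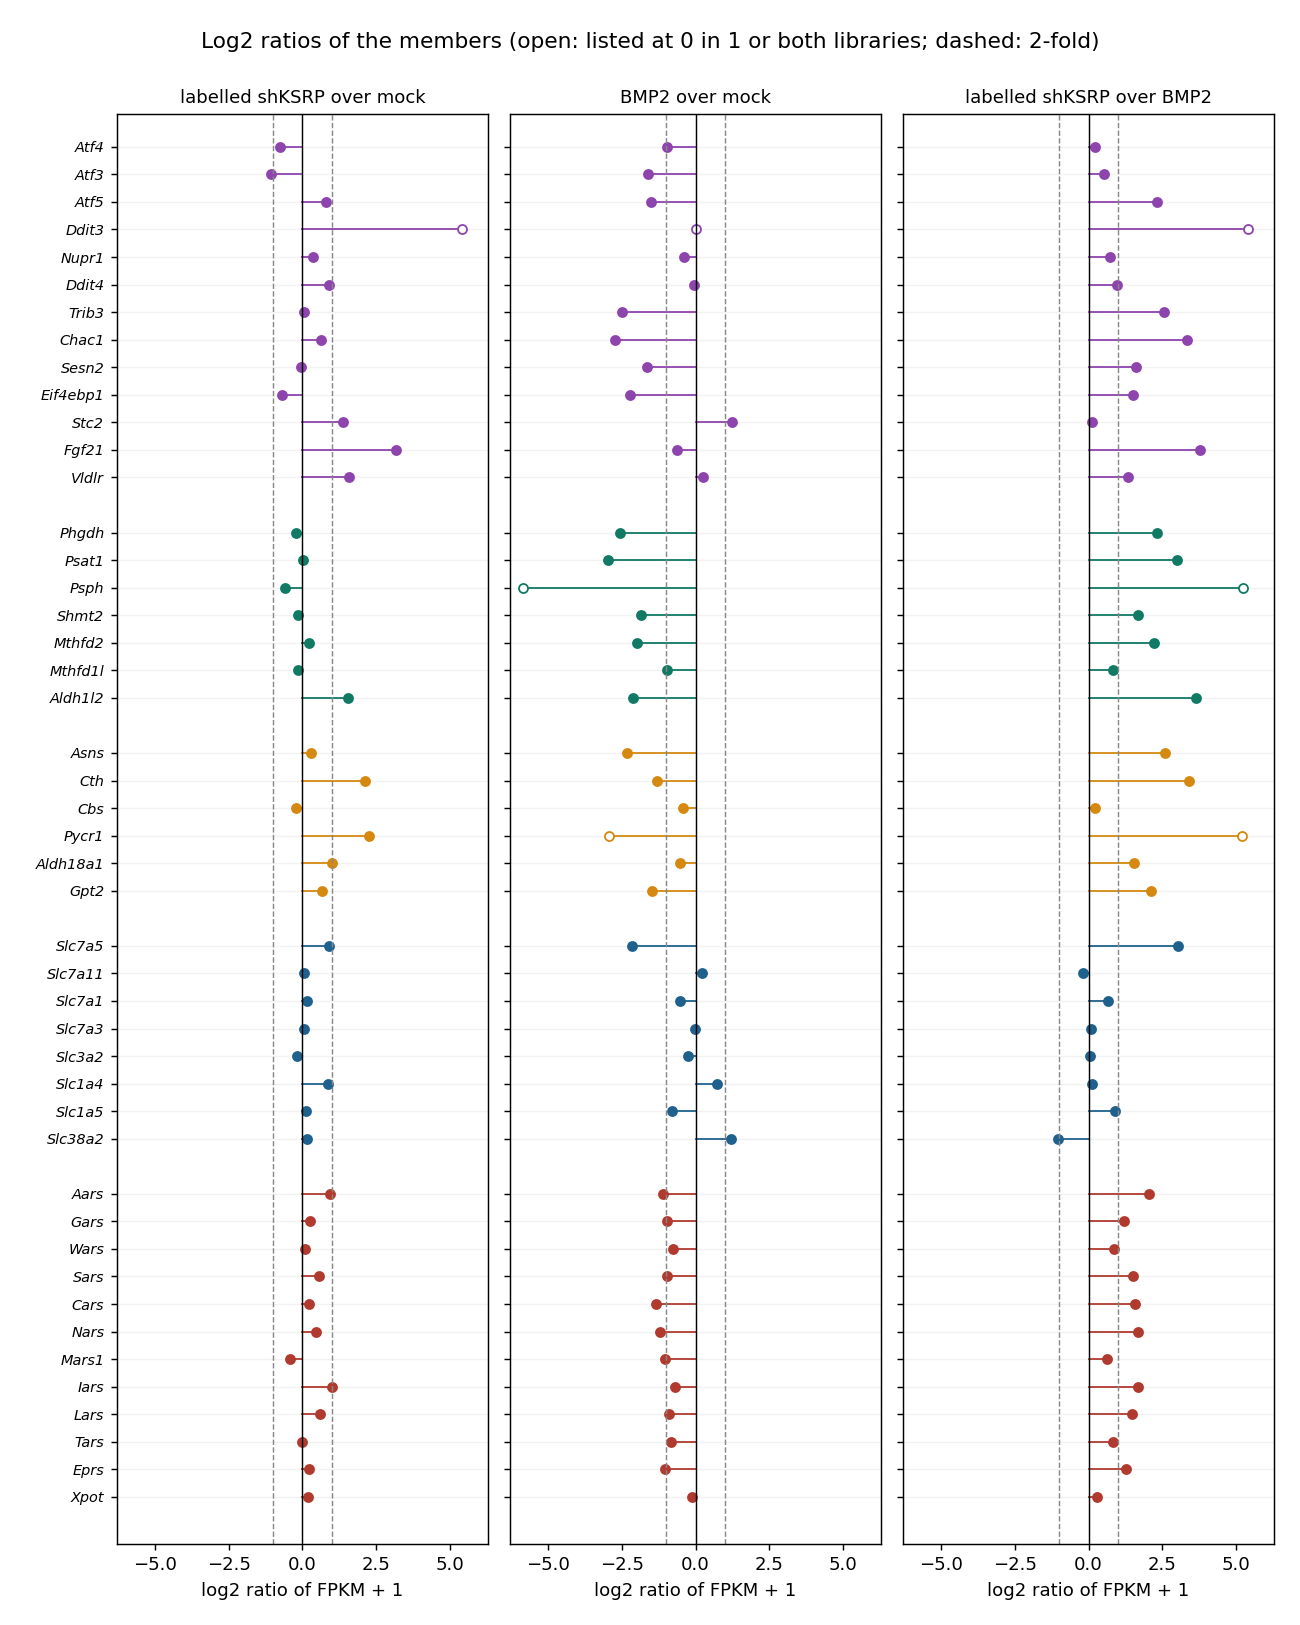
Log2 ratios of FPKM + 1 for each member, coloured by role, for the library labelled shKSRP over mock (left), BMP2 over mock (middle) and the library labelled shKSRP over BMP2 (right); dashed lines mark 2-fold and open circles a gene listed at 0 in 1 or both libraries. The left panel has points on both sides of 0, the middle panel lies mostly to the left (22 lower, 2 higher) and the right panel mostly to the right (28 higher, 1 lower).

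With BMP2 over mock, 6 of the 13 regulators were lower (46.2%) and 1 higher (7.69%), where 8.95% of all genes were lower and 9.21% higher. In the library labelled shKSRP over mock, 4 were higher (30.8%) and 1 lower (7.69%), where 11.0% of all genes were higher and 12.9% lower. These shares of all genes also apply to the counts over mock by role and by list below. Median log2 ratios of the regulators were −0.98 with BMP2 and 0.62 in the library labelled shKSRP. On RefSeq alone the median with BMP2 was −0.28, with 4 lower and 0 higher. Atf4 itself (chromosome 15, 80085614 to 80087971, plus strand, mm9) was at 266 ± 3.1 FPKM in the library labelled shKSRP, 227 ± 4.0 in the BMP2 library and 447 ± 5.5 in the mock library. On the summed value it was highest in mock and just short of 2-fold lower with BMP2, at log2 ratios over mock of −0.75 in the library labelled shKSRP and −0.98 with BMP2. Assembled transcripts carried 161 FPKM of the Atf4 value with BMP2 and 318 FPKM in mock, but none in the library labelled shKSRP. On RefSeq alone the ratio in the library labelled shKSRP turned to 1.03, past 2-fold, and that with BMP2 was −0.97. With fragments taken over a fixed gene length the ratios were −0.47 in the library labelled shKSRP and −1.03 with BMP2, so the BMP2 ratio then passes 2-fold. Since ATF4 is controlled largely in translation, its mRNA is not a measure of the protein, which was not measured here.

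Atf5, a related bZIP factor that is itself controlled through upstream reading frames, was at 209 ± 2.6 FPKM in the library labelled shKSRP and 41.3 ± 1.3 with BMP2, against 118 ± 2.1 in mock. On the summed values the order of the libraries differs from that of Atf4, with log2 ratios over mock of 0.82 in the library labelled shKSRP and −1.50 with BMP2. Atf3, a bZIP factor that restrains and tunes the stress response, was low throughout, at 1.20 ± 0.23 FPKM in the library labelled shKSRP, 0.519 ± 0.13 in the BMP2 library and 3.65 ± 0.42 in the mock library. It is the only member called lower in both comparisons with mock, at log2 ratios of −1.08 in the library labelled shKSRP and −1.61 with BMP2. On RefSeq alone both calls were lost, at −0.06 in the library labelled shKSRP and −0.28 with BMP2. Ddit3, which codes for CHOP, the stress factor linked to cell death, was at 42.0 ± 1.8 FPKM in the library labelled shKSRP and listed at 0 with BMP2 and in mock. Its RefSeq transcript ends within the locus of Mars1 on the other strand, and whether reads were assigned by strand is unknown from these files. Nupr1, a small chromatin-associated stress protein, was at 173 ± 4.6 FPKM in the library labelled shKSRP and 104 ± 3.8 with BMP2, against 135 ± 4.9 in mock, a spread that stayed within 2-fold of mock.

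The lowest ratios with BMP2 over mock among the regulators were those of Chac1, Trib3 and Eif4ebp1. Chac1, which breaks down glutathione (chromosome 2, 119176978 to 119180062, plus strand, mm9), was at 60.8 ± 1.5 FPKM in the library labelled shKSRP, 5.08 ± 0.48 in the BMP2 library and 39.2 ± 1.3 in the mock library. Trib3, a pseudokinase that binds ATF4 and limits it, was at 19.4 ± 0.76 FPKM in the library labelled shKSRP and 2.47 ± 0.29 with BMP2, against 18.6 ± 0.87 in mock. Both were near or above mock in the library labelled shKSRP and far below it with BMP2, where Chac1 stood 7.73-fold and Trib3 7.51-fold lower than in mock. Log2 ratios over mock were 0.62 in the library labelled shKSRP and −2.73 with BMP2 for Chac1, and 0.06 in the library labelled shKSRP and −2.49 with BMP2 for Trib3. Sesn2, a leucine sensor that restrains mTORC1, was at 17.5 ± 0.55 FPKM in the library labelled shKSRP, 5.04 ± 0.31 in the BMP2 library and 18.2 ± 0.86 in the mock library. Eif4ebp1, the repressor of cap-dependent translation, was at 198 ± 4.7 FPKM in the library labelled shKSRP and 68.0 ± 2.3 with BMP2, against 323 ± 8.5 in mock. Both were lower with BMP2 on the summed value, at log2 ratios over mock of −1.66 for Sesn2 and −2.23 for Eif4ebp1. In mock 14.4 FPKM of Sesn2 lay on an assembled transcript of 3 exons. Its assembled form of 10 exons was at 17.5 FPKM in the library labelled shKSRP and 5.04 with BMP2, against 3.71 in mock. Over a fixed gene length the Sesn2 ratios over mock were 0.55 in the library labelled shKSRP and −1.04 with BMP2. On RefSeq alone the ratio of Eif4ebp1 in the library labelled shKSRP over BMP2 turned to −0.30, where the summed value gives 1.53. Its RefSeq ratio in the library labelled shKSRP over mock was −1.60, past 2-fold, where the summed value gives −0.70. Ddit4, another inhibitor of mTORC1, was close to mock with BMP2, at 46.7 ± 1.6 FPKM in the library labelled shKSRP and 23.4 ± 0.98 with BMP2, against 24.3 ± 0.99 in mock. In the library labelled shKSRP 22.3 FPKM of Ddit4 lay on an assembled transcript, and on RefSeq alone its log2 ratio over mock was 0.0032.

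The secreted and surface products were not called lower with BMP2 on the FPKM + 1 scale. Fgf21, a secreted metabolic hormone that stressed muscle can release (chromosome 7, 52869260 to 52870860, minus strand, mm9), was at 14.7 ± 1.1 FPKM in the library labelled shKSRP, 0.141 ± 0.11 in the BMP2 library and 0.743 ± 0.24 in the mock library. The library labelled shKSRP was 19.7-fold above mock, a log2 ratio of 3.17 on the FPKM + 1 scale, and the other libraries were both below 1 FPKM. Without the added 1 the BMP2 library was 5.29-fold below mock, with intervals that do not overlap, where the ratio of FPKM + 1 is −0.61. Stc2, a secreted glycoprotein of the stanniocalcin family, was at 7.32 ± 0.52 FPKM in the library labelled shKSRP and 6.68 ± 0.50 with BMP2, against 2.23 ± 0.31 in mock. It is the only member higher in both comparisons, at log2 ratios of 1.36 in the library labelled shKSRP and 1.25 with BMP2, and all its values are low. On RefSeq alone its BMP2 ratio was 0.65, short of 2-fold. Vldlr, a lipoprotein receptor, was at 4.23 ± 0.22 FPKM in the library labelled shKSRP, 1.07 ± 0.11 in the BMP2 library and 0.759 ± 0.092 in the mock library, which is higher in the library labelled shKSRP (log2 ratio 1.57) and within 2-fold of mock with BMP2 (0.24). Most of its value in the library labelled shKSRP was on assembled transcripts, and on RefSeq alone that ratio was 0.41.

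The serine and folate enzymes were lower with BMP2 in 6 of 7 cases, with a median log2 ratio of −2.11 over mock, the lowest of the role groups. Their summed FPKM was 616 in the library labelled shKSRP, 114 in the BMP2 library and 645 in the mock library, so the BMP2 library held 17.7% of mock, with Psph counted there at a listed 0. Phgdh, the first and committed step of serine synthesis (chromosome 3, 98117094 to 98143892, minus strand, mm9), was at 214 ± 2.6 FPKM in the library labelled shKSRP, 41.6 ± 1.2 in the BMP2 library and 248 ± 3.0 in the mock library. Psat1, the aminotransferase that follows it (chromosome 19, 15979613 to 15999549, minus strand, mm9), was at 146 ± 2.1 FPKM in the library labelled shKSRP and 17.4 ± 0.74 with BMP2, against 143 ± 2.3 in mock. With BMP2, Phgdh stood 5.97-fold and Psat1 8.26-fold lower than in mock, while in the library labelled shKSRP both were close to mock, with log2 ratios of −0.21 for Phgdh and 0.03 for Psat1. Psph, the phosphatase that releases serine (chromosome 5, 130271434 to 130293129, minus strand, mm9), was at 37.2 ± 1.2 FPKM in the library labelled shKSRP, listed at 0 with BMP2 and at 57.2 ± 1.6 FPKM in mock. The 3 consecutive steps of the pathway were therefore all in the lower class with BMP2 and in neither class in the library labelled shKSRP, with the value of Psph resting on a listed 0.

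In the folate branch of the mitochondria, Shmt2, which splits serine to glycine and a carbon unit, was at 83.2 ± 1.5 FPKM in the library labelled shKSRP and 25.3 ± 0.87 with BMP2, against 92.98 ± 1.6 in mock. Shmt2 shares its locus with Nxph4, so how fragments were divided between the pair is uncertain. Mthfd2, which oxidises that carbon unit and is low in most resting adult tissue, was at 82.1 ± 1.5 FPKM in the library labelled shKSRP, 17.0 ± 0.75 in the BMP2 library and 69.7 ± 1.8 in the mock library. Both were lower with BMP2, at log2 ratios over mock of −1.84 for Shmt2 and −1.97 for Mthfd2. Mthfd1l, which releases formate, was at 20.0 ± 0.63 FPKM in the library labelled shKSRP and 10.9 ± 0.74 with BMP2, against 22.3 ± 0.69 in mock. Its BMP2 ratio of −0.97 lies just inside the 2-fold limit and was −1.35 with fragments over a fixed gene length. Aldh1l2, a mitochondrial dehydrogenase that burns the carbon unit and yields NADPH, was the enzyme of this group that passed 2-fold against mock in both libraries, at 32.9 ± 0.56 FPKM in the library labelled shKSRP, 1.70 ± 0.13 in the BMP2 library and 10.7 ± 0.47 in the mock library. The library labelled shKSRP was above mock (log2 ratio 1.54) and the BMP2 library below it (−2.11). In mock, 7.90 FPKM of its value stood on an assembled transcript, and on RefSeq alone the BMP2 ratio was −0.47.

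Serine, glycine and folate genes outside the members, a list of 28 of which 23 passed the filter, had 5 lower, 0 higher and a median log2 ratio of −0.33 with BMP2 over mock. Against mock, the library labelled shKSRP had 5 lower and 2 higher. The cytosolic enzyme Shmt1 was at 7.28 FPKM in the library labelled shKSRP and 3.54 with BMP2, against 13.2 in mock. Mthfd1, the cytosolic trifunctional folate enzyme, was at 20.2 FPKM in the library labelled shKSRP and 19.1 with BMP2, against 65.4 in mock. These cytosolic enzymes carry folate carbon outside the mitochondria. Tyms, which makes thymidylate for DNA synthesis, was at 23.5 FPKM in the library labelled shKSRP and 25.2 with BMP2, against 79.7 in mock. Mthfd1 and Tyms were thus called lower than mock in both libraries. For Mthfd1 48.8 FPKM of the mock value was on assembled transcripts, and the call in the library labelled shKSRP was lost over a fixed gene length (−0.68) and turned to 0.27 on RefSeq alone. With BMP2 its ratio was −1.06 over a fixed length and −0.63 on RefSeq alone. Tyms kept both calls in these settings.

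Of the 6 other amino acid enzymes, 4 were lower with BMP2 over mock and 3 were higher in the library labelled shKSRP over mock, with median log2 ratios of −1.38 with BMP2 and 0.83 in the library labelled shKSRP. On RefSeq alone 2 of these enzymes were lower with BMP2, at a median of −0.76. In the library labelled shKSRP 2 were then higher, at a median of 0.34. Their FPKM summed to 302 in the library labelled shKSRP, 52.4 in the BMP2 library and 188 in the mock library. Asns, the asparagine synthetase whose promoter is a classic amino acid response unit (chromosome 6, 7625171 to 7643182, minus strand, mm9), was at 147 ± 2.5 FPKM in the library labelled shKSRP, 23.1 ± 1.1 in the BMP2 library and 119 ± 2.3 in the mock library. It was 5.14-fold lower with BMP2 than in mock, and its log2 ratio over mock in the library labelled shKSRP was 0.30. Gpt2, the mitochondrial alanine aminotransferase, was at 54.6 ± 1.1 FPKM in the library labelled shKSRP and 11.8 ± 0.56 with BMP2, against 34.4 ± 1.1 in mock, at log2 ratios over mock of 0.65 in the library labelled shKSRP and −1.46 with BMP2. On RefSeq alone the BMP2 ratio of Gpt2 was −0.74, and over a fixed gene length its ratio in the library labelled shKSRP was 1.07, past 2-fold.

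The proline enzymes were higher in the library labelled shKSRP. Aldh18a1, which begins proline synthesis from glutamate, was at 46.2 ± 0.97 FPKM in the library labelled shKSRP, 15.2 ± 0.60 in the BMP2 library and 22.4 ± 0.70 in the mock library, and its log2 ratio of 1.02 over mock only just passed the limit. Pycr1, which completes it, was at 35.8 ± 1.1 FPKM in the library labelled shKSRP, listed at 0 with BMP2 and at 6.66 ± 0.50 FPKM in mock. All of the Pycr1 signal lay on assembled transcripts at a locus shared with Mafg and Sirt7, with its RefSeq transcript listed at 0 in every library, so its level is uncertain. The transsulfuration genes parted. Cth, which releases cysteine from cystathionine, was at 16.6 ± 0.94 FPKM in the library labelled shKSRP and 0.651 ± 0.16 with BMP2, against 3.06 ± 0.34 in mock, for log2 ratios over mock of 2.11 in the library labelled shKSRP and −1.30 with BMP2. In the library labelled shKSRP 11.5 FPKM of the Cth value was on an assembled transcript, and the ratio on RefSeq alone was 0.57, short of 2-fold. Cbs, the step before it, was low and close in all libraries, at 2.02 ± 0.25 FPKM in the library labelled shKSRP, 1.59 ± 0.26 in the BMP2 library and 2.49 ± 0.29 in the mock library.

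The transporters did not move as a group. With BMP2 over mock 1 of the 7 compared was lower and 1 higher (14.3% each), where 8.95% of all genes were lower and 9.21% higher. Their median log2 ratio of −0.26 turns to 0.01 if the libraries are scaled to a common FPKM sum. It was −0.52 over a fixed gene length and −0.38 on RefSeq alone. None passed in either direction in the library labelled shKSRP, apart from Slc7a5 under a common FPKM sum (1.24) and Slc1a4 in other settings given below. The summed FPKM of the transporters was 408 in the library labelled shKSRP, 436 in the BMP2 library and 344 in the mock library, and the excess over mock with BMP2 came from Slc38a2. Without that gene the sums were 304 FPKM in the library labelled shKSRP and 218 with BMP2, against 249.3 in mock, and on RefSeq alone all 8 summed to 333 FPKM in the library labelled shKSRP and 166 with BMP2, against 282 in mock. Slc7a5, the light chain LAT1 that takes up leucine and other large neutral amino acids (chromosome 8, 124405046 to 124431586, minus strand, mm9), was at 69.7 ± 1.4 FPKM in the library labelled shKSRP, 7.54 ± 0.49 in the BMP2 library and 36.9 ± 0.82 in the mock library. Slc3a2, the heavy chain it pairs with, was at 118 ± 1.6 FPKM in the library labelled shKSRP and 113 ± 2.7 with BMP2, against 135 ± 1.9 in mock. The partners thus differed with BMP2, with log2 ratios over mock of −2.15 for Slc7a5 and −0.26 for Slc3a2. Slc3a2 also pairs with other light chains, and over a fixed gene length its BMP2 ratio was −0.83, and on RefSeq alone −1.48, past 2-fold like that of Slc7a5.

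Slc7a11, the cystine-glutamate exchanger, whose promoter holds the facing pair of elements printed above, varied little, at 6.83 ± 0.20 FPKM in the library labelled shKSRP, 7.84 ± 0.23 in the BMP2 library and 6.52 ± 0.23 in the mock library. Slc7a1, a carrier of arginine and lysine, was at 11.7 ± 0.38 FPKM in the library labelled shKSRP and 6.99 ± 0.25 with BMP2, against 10.5 ± 0.30 in mock. Slc7a3, a related carrier, was at 0.364 ± 0.12 FPKM in the library labelled shKSRP, 0.298 ± 0.092 in the BMP2 library and 0.301 ± 0.11 in the mock library, with intervals that overlap. Slc1a5, which takes up glutamine, was at 18.2 ± 0.89 FPKM in the library labelled shKSRP and 9.20 ± 0.67 with BMP2, against 16.6 ± 0.87 in mock. None of these 4 passed 2-fold against mock.

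Slc1a4, a carrier of alanine, serine and cysteine, was above mock in both libraries without reaching 2-fold on the summed value, at 79.0 ± 1.4 FPKM in the library labelled shKSRP, 72.6 ± 1.5 in the BMP2 library and 43.1 ± 1.1 in the mock library. In mock 34.1 FPKM of it was on assembled transcripts. The ratio in the library labelled shKSRP passed 2-fold over a fixed gene length (1.14), under a common FPKM sum (1.20) and on RefSeq alone (2.37). The BMP2 ratio was 0.87 over a fixed length, 1.00 under a common sum and 1.55 on RefSeq alone, so the direction was the same in each and the call differed between them. Slc38a2, the neutral amino acid carrier SNAT2 that is induced by amino acid shortage (chromosome 15, 96517823 to 96530129, minus strand, mm9), was at 105 ± 1.1 FPKM in the library labelled shKSRP and 218 ± 2.4 with BMP2, against 94.6 ± 1.1 in mock. It was called higher with BMP2, at a log2 ratio of 1.20 over mock. That call rests on how transcripts were summed, because 146 FPKM of the BMP2 value lay on 3 assembled transcripts that were absent from the other libraries. On RefSeq alone the ratio was −0.38, and over a fixed gene length it was 1.01.

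Of the 12 genes of tRNA charging and export, 5 were lower by at least 2-fold with BMP2 over mock (Aars, Cars, Nars, Mars1 and Eprs) and none was higher. Their log2 ratios ran from −1.34 to −0.11 with a median of −0.96. Under a common FPKM sum the median was −0.70, Xpot turned to 0.15 and Cars alone of the 5 passed 2-fold. In the library labelled shKSRP none passed 2-fold over mock, with ratios from −0.42 to 0.99 and a median of 0.25, although Aars (1.27) and Iars (1.33) passed it under a common FPKM sum, and on RefSeq alone 3 were higher (Wars, Nars and Eprs) and 1 lower (Aars). Of these, Wars rests on a listed 0 in mock and Aars on a listed 0 in the library labelled shKSRP. The summed FPKM of the 12 genes was 1117 in the library labelled shKSRP, 436 in the BMP2 library and 865 in the mock library. Each synthetase gene is named by the one-letter code of the amino acid that its enzyme loads onto tRNA, such as alanine for Aars and glycine for Gars.

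Cars, the cysteinyl-tRNA synthetase gene, was at 51.1 ± 1.4 FPKM in the library labelled shKSRP, 16.6 ± 0.79 in the BMP2 library and 43.5 ± 1.0 in the mock library, the lowest ratio with BMP2 in the group. Nars, for asparagine, was at 167 ± 2.3 FPKM in the library labelled shKSRP and 52.0 ± 1.4 with BMP2, against 122 ± 2.3 in mock, and on RefSeq alone its BMP2 ratio was −0.46, short of 2-fold. Aars was at 125 ± 1.5 FPKM in the library labelled shKSRP, 29.5 ± 0.73 in the BMP2 library and 65.3 ± 1.1 in the mock library, but with fragments over a fixed gene length its BMP2 ratio was −0.90, short of 2-fold, and it shares a locus with Exosc6. Eprs, which loads glutamate and proline, was at 101 ± 1.1 FPKM in the library labelled shKSRP and 41.7 ± 0.75 with BMP2, against 86.0 ± 2.0 in mock. In mock an assembled transcript of 12 exons carried 45.3 FPKM of the Eprs value, and the BMP2 ratio of −1.03 was −0.36 over a fixed length and 0.04 on RefSeq alone. Mars1, for methionine, was at 46.01 ± 0.96 FPKM in the library labelled shKSRP, 29.5 ± 0.82 in the BMP2 library and 62.0 ± 1.2 in the mock library, and unlike the other 4 of these it was below mock in the library labelled shKSRP as well, at a ratio of −0.42. It shares its locus with Mbd6.

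The other synthetases stopped short of 2-fold with BMP2 over mock. Gars was at 185 ± 2.5 FPKM in the library labelled shKSRP and 78.7 ± 1.5 with BMP2, against 154 ± 2.4 in mock. Sars, for serine, was at 147 ± 2.4 FPKM in the library labelled shKSRP, 50.9 ± 1.3 in the BMP2 library and 99.99 ± 1.8 in the mock library. Serine is thus both the substrate of Sars and the product of the Phgdh pathway. Iars, for isoleucine, was at 59.4 ± 0.88 FPKM in the library labelled shKSRP and 17.8 ± 0.51 with BMP2, against 29.4 ± 0.65 in mock. Lars, for leucine, was at 83.2 ± 1.1 FPKM in the library labelled shKSRP, 29.1 ± 0.71 in the BMP2 library and 55.2 ± 0.96 in the mock library. All 4 were highest in the library labelled shKSRP, and all 4 were called higher there than with BMP2, at log2 ratios between 1.22 and 1.69. On RefSeq alone the ratio of Gars was 0.86 and that of Sars turned to −0.16, as that of Aars turned to −3.63. Tars, for threonine, was at 99.4 ± 1.5 FPKM in the library labelled shKSRP and 55.7 ± 1.3 with BMP2, against 100.3 ± 1.6 in mock. Wars, for tryptophan, was at 28.0 ± 0.96 FPKM in the library labelled shKSRP, 14.9 ± 0.71 in the BMP2 library and 26.2 ± 1.1 in the mock library, and on RefSeq alone its BMP2 ratio turned to 3.99. That RefSeq ratio rests on a listed 0 in mock. Xpot, the exportin that carries tRNA out of the nucleus, differed least with BMP2 in this group, at 24.3 ± 0.55 FPKM in the library labelled shKSRP and 19.7 ± 0.65 with BMP2, against 21.3 ± 0.60 in mock.

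Cytosolic synthetase and scaffold genes outside the members gave 2 lower and 0 higher of 12 with BMP2 over mock (Kars and Aimp2), with a median log2 ratio of −0.52. They gave 1 lower and 1 higher in the library labelled shKSRP, with a median of −0.11. Kars, for lysine, was at 105 FPKM in the library labelled shKSRP and 65.6 with BMP2, against 148 in mock. Both calls with BMP2 were lost over a fixed gene length, at −0.57 for Kars, which had 72.3 FPKM of its mock value on assembled transcripts, and −0.83 for Aimp2, while Vars then passed (−1.02). Mitochondrial synthetases, which serve translation inside that organelle, gave 0 lower and 1 higher of 16 with BMP2, with a median of −0.23, and 0 lower and 2 higher in the library labelled shKSRP, with a median of 0.01. Over a fixed gene length the higher call with BMP2 and 1 of the 2 in the library labelled shKSRP were lost as well. Beside the counts of both lists, 8.95% of all genes were lower and 9.21% higher with BMP2 over mock. In the library labelled shKSRP 12.9% of all genes were lower and 11.0% higher. Whether the members differ from these lists beyond chance was not tested, since genes of 1 library pair are not replicates.

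**Figure D3:**
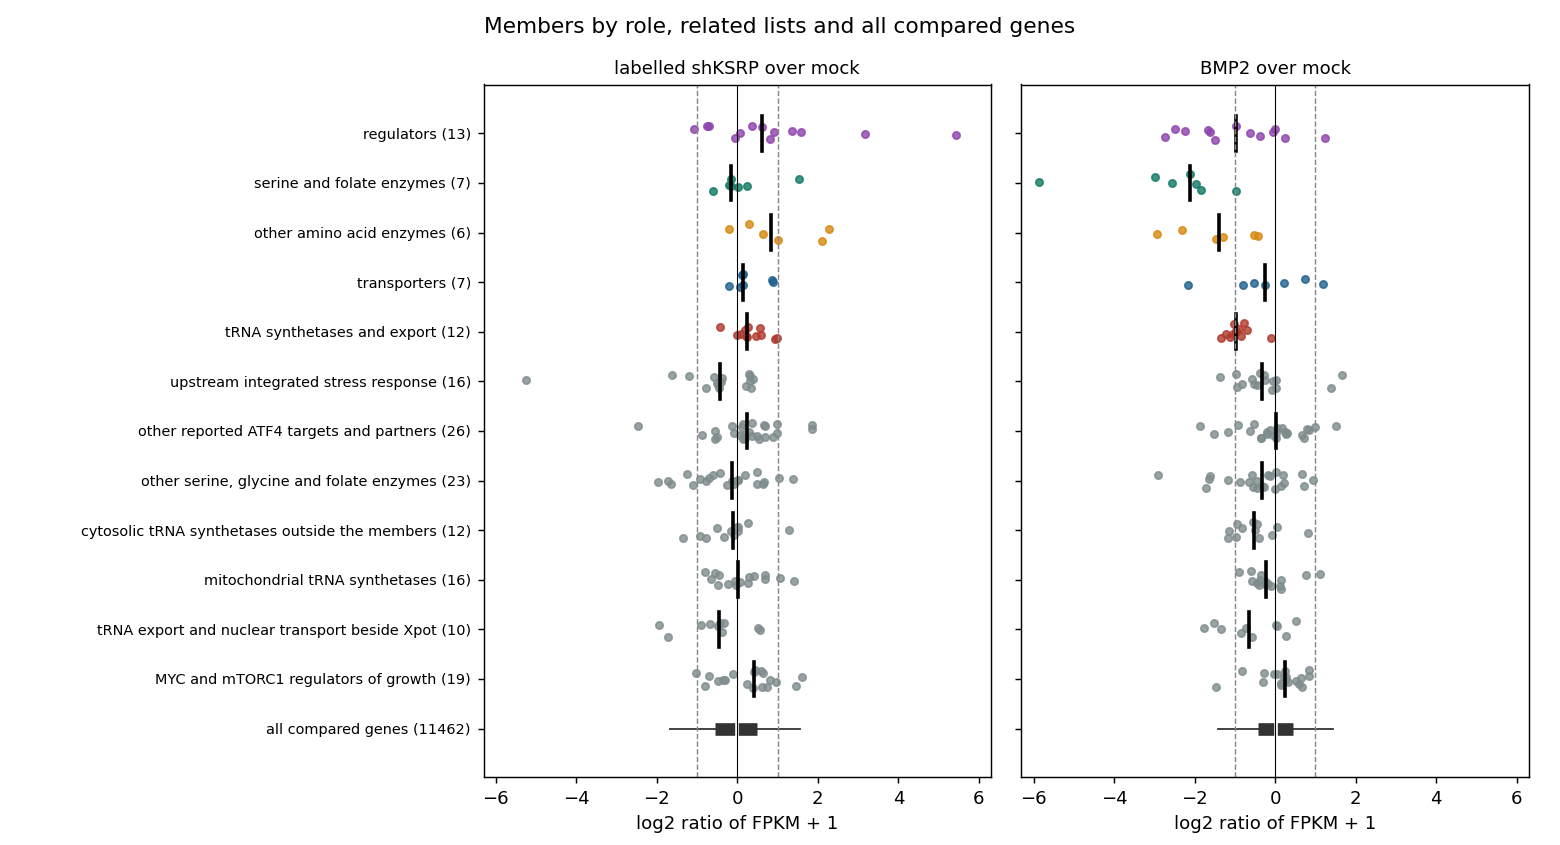
Log2 ratio of FPKM + 1 over mock for each gene of the 5 role groups (coloured), of 7 related lists (grey) and of all 11462 compared genes (box of quartiles with white median), in the library labelled shKSRP (left) and with BMP2 (right); black bars are medians, dashed lines mark 2-fold, and the number of genes is in brackets. On the right the serine and folate enzymes have the lowest median (−2.11) and the tRNA group lies in a narrow band below 0, whereas on the left the 5 group medians lie between −0.15 and 0.83, where the sign of the serine and folate median turns under a common FPKM sum (0.18).

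The upstream side of the pathway, 16 genes of eIF2, its kinases, its exchange factor and its phosphatases, gave 2 higher and 1 lower with BMP2 over mock and 0 higher and 3 lower in the library labelled shKSRP over mock. Over all genes 9.21% were higher and 8.95% lower with BMP2, and 11.0% higher and 12.9% lower in the library labelled shKSRP. The median log2 ratios of the list were −0.32 with BMP2 and −0.44 in the library labelled shKSRP. On RefSeq alone the median in the library labelled shKSRP turned to 0.25, with 3 higher and 1 lower, and that with BMP2 was −0.11. Eif2ak3, which codes for the kinase PERK, was at 6.08 FPKM in the library labelled shKSRP and 17.2 with BMP2, against 4.77 in mock. Gcn1, the ribosome-bound activator of the kinase GCN2, was at 17.1 FPKM in the library labelled shKSRP and 34.9 with BMP2, against 12.8 in mock. Both were called higher with BMP2 on the summed value, but assembled transcripts carried 12.2 FPKM of Eif2ak3 and 26.6 FPKM of Gcn1 there. Over a fixed gene length the BMP2 ratios were 0.81 for Eif2ak3 and −0.02 for Gcn1, so neither call held, and on RefSeq alone Gcn1 turned to −0.56. Eif2s1, which codes for the phosphorylated subunit of eIF2, was at 35.1 FPKM in the library labelled shKSRP and 41.6 with BMP2, against 110 in mock, where 97.4 FPKM was on assembled transcripts. Over a fixed length its ratios were −0.71 in the library labelled shKSRP and −0.47 with BMP2, short of 2-fold, and on RefSeq alone they turned to 1.41 in the library labelled shKSRP and 1.65 with BMP2. Ppp1r15a, the inducible phosphatase subunit that ends the response, was at 10.7 FPKM in the library labelled shKSRP and 12.9 with BMP2, against 26.0 in mock, and over a fixed length its ratio in the library labelled shKSRP was −0.49. The third of the lower calls in the library labelled shKSRP, Eif2b4, rests on a listed 0. Over a fixed length the list thus had 0 higher and 0 lower with BMP2, and 0 higher and 1 lower in the library labelled shKSRP. Phosphorylation of eIF2 was not measured.

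A further list of 26 reported ATF4 targets and partners that are not members had 3 lower (Gdf15, Pck2 and Bcat1), 1 higher (Sesn1) and a median log2 ratio of 0.02 with BMP2 over mock. Over all genes 8.95% were lower and 9.21% higher with BMP2, and 12.9% lower and 11.0% higher in the library labelled shKSRP. In the library labelled shKSRP 2 were higher (Gadd45a and Sesn3) and 1 lower (Gdf15), with a median of 0.24. On RefSeq alone Sesn3 passed from the higher to the lower class there. Gdf15, a secreted stress cytokine, was at 28.6 FPKM in the library labelled shKSRP and 43.7 with BMP2, against 162 in mock. Pck2, a mitochondrial enzyme that can feed serine synthesis, was at 73.6 FPKM in the library labelled shKSRP and 19.6 with BMP2, against 45.0 in mock. Gadd45a, a stress protein of growth arrest, was at 140.2 FPKM in the library labelled shKSRP and 19.3 with BMP2, against 37.8 in mock. Pck2 and Gadd45a were thus highest in the library labelled shKSRP and lowest with BMP2, and Gdf15 was highest in mock. On RefSeq alone the BMP2 ratios of Pck2 and Gadd45a over mock turned to 0.46 and 0.48, and that of Bcat1 to 1.09. The lower call of Bcat1 was also lost over a fixed gene length (−0.78).

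All genes showed a trend over transcript length, which touches the members as well. Genes under 1000 nt had median log2 ratios over mock of −0.55 in the library labelled shKSRP and −0.43 with BMP2, and genes of 6000 nt or more had 0.46 in the library labelled shKSRP and 0.27 with BMP2. The 22 members of 2000 to 4000 nt had medians of 0.17 in the library labelled shKSRP and −1.01 with BMP2, where all genes of that length had 0.0047 in the library labelled shKSRP and 0.07 with BMP2. With BMP2 the 10 members of 1000 to 2000 nt had a median of −1.55 against −0.15 for all genes of that length, and the 5 of 4000 to 6000 nt had −0.70 against 0.22. At the ends there were 4 members each, with −0.49 against −0.43 under 1000 nt and −0.15 against 0.27 from 6000 nt. With the trend subtracted, the median of the 45 members was 0.36 in the library labelled shKSRP and −1.11 with BMP2. The median with BMP2 was therefore as low after subtraction, while 3 calls against mock were lost and 5 were gained. Of those lost, Atf3 stood at −0.88 and Aldh18a1 at 0.89 in the library labelled shKSRP, and Slc38a2 at 0.99 with BMP2. Those gained were higher calls of Atf5 (1.06) and Ddit4 (1.19) in the library labelled shKSRP, and lower calls of Mthfd1l (−1.11), Sars (−1.10) and Lars (−1.05) with BMP2. The excess of Ddit4 over mock lay on an assembled transcript, as given above.

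**Figure D4:**
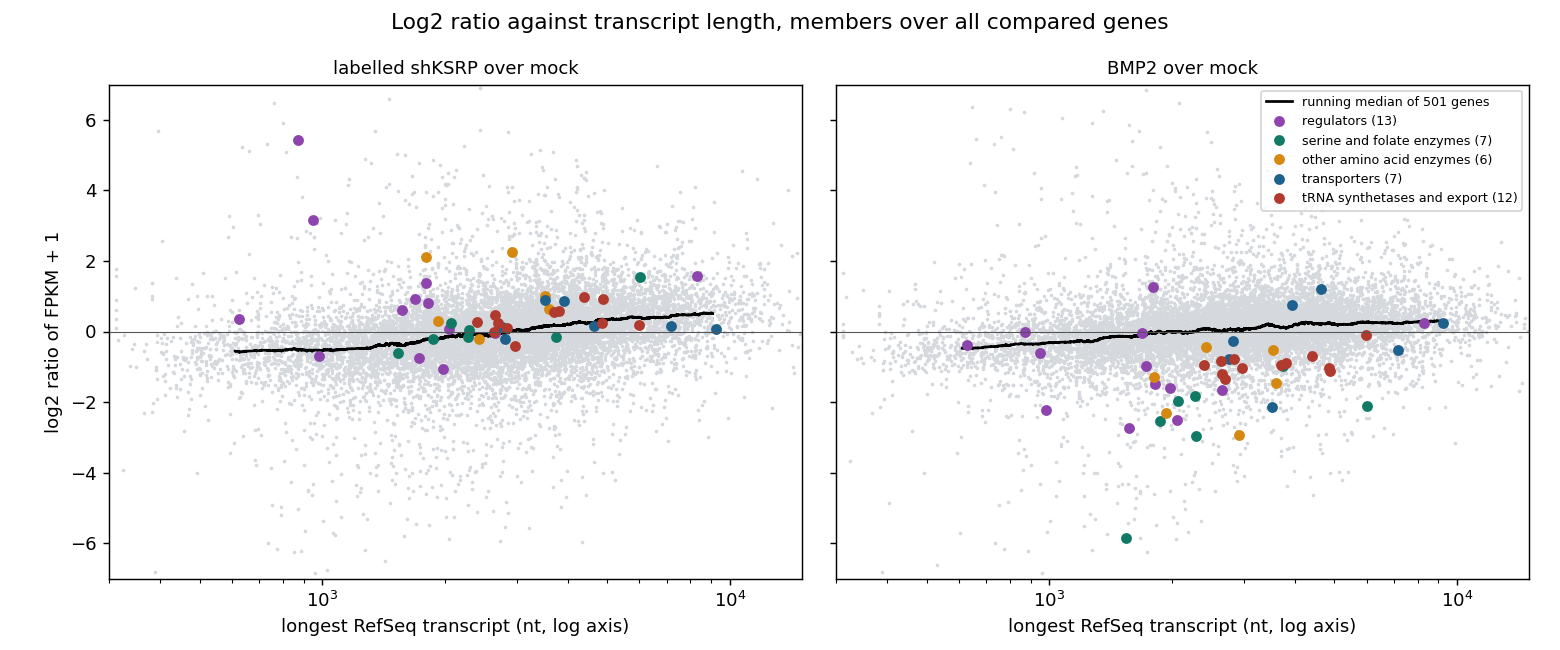
Log2 ratio of FPKM + 1 over mock (vertical axis) against the length of the longest RefSeq transcript in nt (log axis), in the library labelled shKSRP (left) and with BMP2 (right); grey points are all 11462 compared genes, coloured points the members by role, and the black line is a running median. The black line climbs from left to right in both panels, and on the right most coloured points lie under it, with a median of −1.55 for the 10 members of 1000 to 2000 nt.

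The split of FPKM between RefSeq and assembled transcripts differed between libraries. Of the 46 members, 21 in the library labelled shKSRP, 19 in the BMP2 library and 26 in the mock library had some FPKM on assembled transcripts, and 11, 9 and 13 had most of it there. For Sesn2 the RefSeq transcript was listed at 0 in all 3 libraries while assembled transcripts carried the whole value. For Aars, assembled transcripts carried 125 FPKM in the library labelled shKSRP, 18.1 with BMP2 and 13.1 in mock. A RefSeq value alone would therefore set a library in which the gene was assembled against another in which it was not, which is why the sum over the locus is given throughout.

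**Figure D5:**
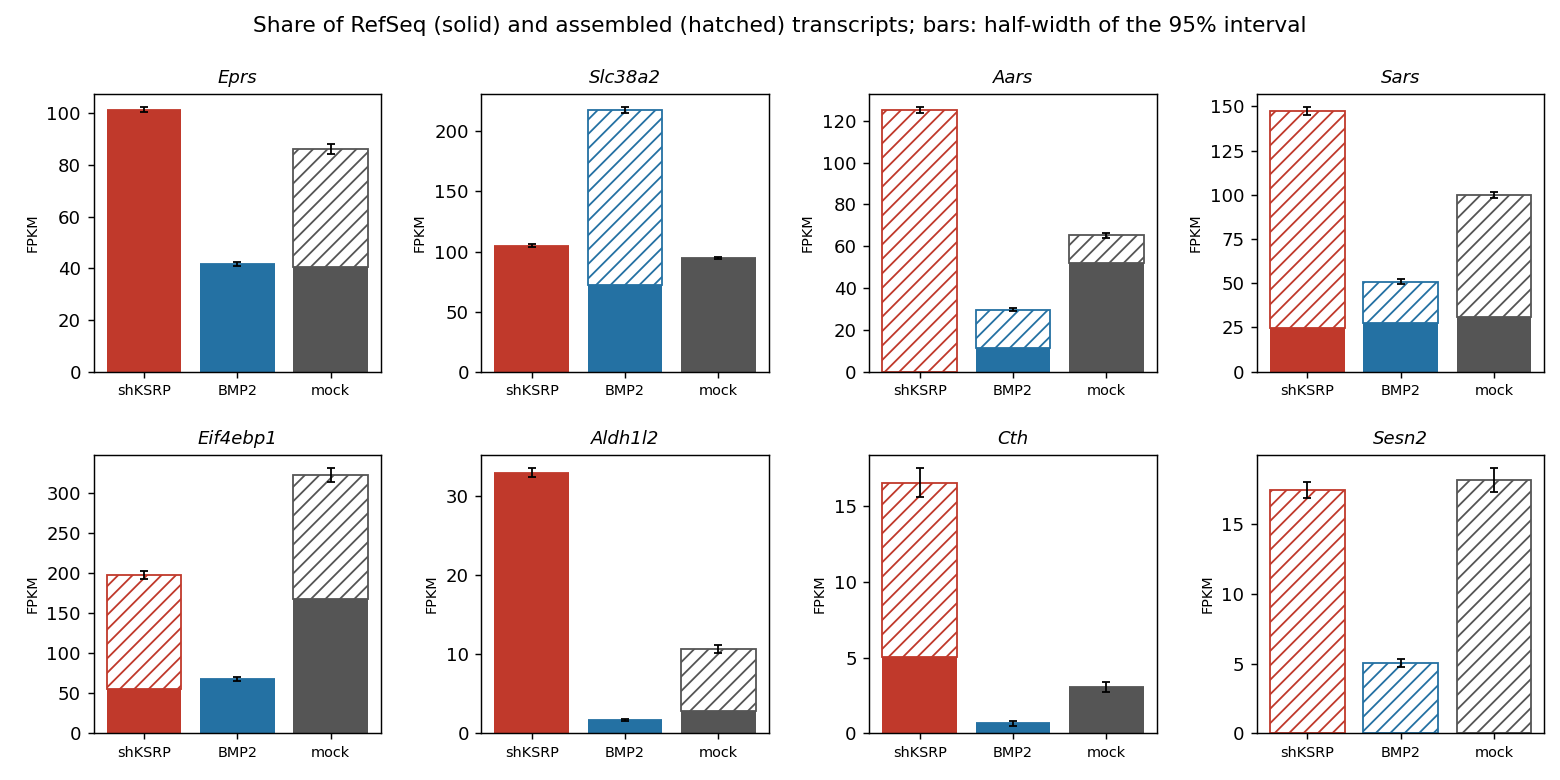
FPKM of 8 members split into RefSeq (solid) and assembled (hatched) transcripts, stacked from 0, in the library labelled shKSRP, the BMP2 library and the mock library; error bars are half-widths of the 95% interval of the sum. The hatched part stands in different libraries for different genes, in mock for Eprs and Aldh1l2, with BMP2 for Slc38a2, and in all 3 libraries for Sesn2 and Sars.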

How the data were processed

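Polyadenylated RNA of C2C12 cells in 3 libraries was sequenced on an Illumina HiSeq 2000, per the labels' protocols. The authors deposited 1 Cufflinks transcript file per library, with FPKM and the bounds of its 95% interval as attributes of each transcript, per the file headers and attributes. The deposited files also hold a score per transcript, relative to the most abundant transcript of its locus, which was not used. Build mm9 and the tools Cufflinks 1.3.0, TopHat 1.4.1, Bowtie 0.12.7 and CASAVA 1.8 are listed in the submitters' processing notes, where neither roles and settings nor strand handling are described. Assembly was separate for each library, so a gene can have an assembled transcript in 1 library and not in another.

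FPKM of a gene was the sum over its RefSeq transcripts and the assembled transcripts of the same Cufflinks locus. Where genes share a locus, an assembled transcript went to the gene with most exon overlap and was dropped if there was none. This left 1709 compared genes, 6 of them members, on shared loci. Of 28222 RefSeq accessions, 27563 were named through a table of RefSeq genes (GRCm38.p6), 166 from a GENCODE table and 216 from the files, and 277 kept the accession. Filters left 11462 genes and set 11244 aside, and 762 of the compared genes were listed at 0 in at least 1 library. Such a 0 can be a failed estimate, so it is given as listed at 0 with no fold.

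Values were compared as log2((FPKM + 1)/(FPKM + 1)), called at 2-fold, with 1 library per group and no test. The files hold no counts. The length trend was a lowess line of span 0.3 on log length. The fixed-length alternative divided the summed products of FPKM and length by the longest RefSeq length. The calculation was tested on simulated data, with Python 3.11.15, pandas 2.3.3, numpy 2.4.6 and statsmodels 0.14.6. Members and lists were chosen with earlier results of these data known. Named genes are the members, all of which are given, and context genes past 2-fold in at least 1 comparison, of which a few central to each list are given with values. One context gene is not reported here. Alternatives covered the pseudocount (0.1 and 5), the filters, the fold called (1.5), RefSeq alone, the most abundant RefSeq transcript, shared loci, length and, chosen after seeing the data, fixed length, assembled transcripts on exons only and a common FPKM sum.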

Additional observations from a re-analysis of the deposited data

How the results depend on the processing

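No paired analysis was possible because each group holds 1 library, and for the same reason no library could be left out. Over all settings, ratios of called members kept their direction and their side of the 2-fold limit in 843 cases, fell short of it in 35 and reversed in 12. Settings that change only the filter, or lower the limit to 1.5-fold, reuse the same ratios, so a called member could not change in them. Members not compared in a setting were left out of this tally, so it is no measure of how firm the calls are. Counts of called members stayed within 1.5 times the value given in the report in 76 cases and moved in 14. This second tally compares numbers and not which genes were called, so a count can stay while its members change. Median log2 ratios of the members and role groups stayed within a set distance of the report's value in 231 cases and moved further in 39.

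All 12 reversals came from RefSeq transcripts taken alone or from the most abundant of them, which gave the same values. They were Slc38a2 at −0.38 (1.20 in the report) and Eprs at 0.037 (−1.03) for BMP2 over mock, and Eif4ebp1 at −0.30 (1.53), Slc38a2 at 0.53 (−1.05), Aars at −3.63 (2.05) and Sars at −0.16 (1.52) for the library labelled shKSRP over BMP2. By construction these values leave out the assembled part. Either RefSeq setting gave 2 members lower in the library labelled shKSRP than mock, in place of 1. They were Eif4ebp1 (−1.60) and Aars (−5.73, resting on a listed 0), and Atf3, the 1 in the report, was not among them.

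For the library labelled shKSRP over mock, the count of higher members, 8 in the report, was 5 with a pseudocount of 5, 16 with a 1.5-fold call and 14 with a common FPKM sum. The count of lower members, 1 in the report, was 0 with a pseudocount of 5, with a filter at 5 FPKM, with the length trend out and with a common FPKM sum, and 4 with a 1.5-fold call. With BMP2 over mock, the 2 higher members became 1 with a pseudocount of 5 or with the length trend out. The 1 member lower in the library labelled shKSRP than with BMP2 became 0 over a fixed length or with a common FPKM sum. The causes were not tested beyond what each setting changes by construction.

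A common FPKM sum moved the median log2 ratio of all genes over mock to 0.28 in the library labelled shKSRP and 0.26 with BMP2, and left 18 members lower with BMP2 (Aars, Nars, Mars1 and Eprs no longer passed), with a median of −0.73 over the members. Under it the serine and folate enzymes had a median of 0.18 in the library labelled shKSRP, against −0.15 in the report, and the transporters one of 0.01 with BMP2, against −0.26, so neither direction is firm. The transporter median with BMP2 was −0.52 over a fixed gene length and −0.38 on RefSeq alone. Depth limits Fgf21, Atf3, Cth, Vldlr and Slc7a3, which are below 1 FPKM in 1 or more libraries, beside Ddit3, Psph and Pycr1, which are listed at 0 in 1 or more.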

Other observations

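Regulators of growth that act beside the ATF4 pathway were also examined. Of 19 compared genes of the MYC and mTORC1 list, 1 was lower and 0 higher with BMP2 over mock, with a median log2 ratio of 0.24. In the library labelled shKSRP 2 were higher and 1 lower, with a median of 0.41. Myc, the transcription factor of cell growth that can induce serine and nucleotide synthesis, was at 40.9 FPKM in the library labelled shKSRP and 23.5 with BMP2, against 66.7 in mock. Its BMP2 ratio of −1.47, the lower call, was −0.55 over a fixed gene length and turned to 0.59 on RefSeq alone. Mtor, the kinase of mTORC1, which raises ATF4 activity in growing cells, was at 13.03 FPKM in the library labelled shKSRP and 7.21 with BMP2, against 3.59 in mock. Its ratio in the library labelled shKSRP, a higher call at 1.61, was 0.89 over a fixed gene length, and with BMP2 the ratio of 0.84 then turned to −0.12. Of 10 genes of tRNA export and nuclear transport beside Xpot, 3 were lower with BMP2 (Nxt1, Ran and Ranbp1) and 2 in the library labelled shKSRP (Nxt1 and Ranbp1), with median log2 ratios of −0.65 with BMP2 and −0.46 in the library labelled shKSRP.

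Atf3 was assembled with an upstream start in both growth-medium libraries. The RefSeq transcript starts at 193007212 on the minus strand of chromosome 1 (mm9), and the assembled one at 193041817 in the library labelled shKSRP and at 193041795 in mock, with 4 exons in each. The upstream form carried 0.439 FPKM in the library labelled shKSRP and 2.81 FPKM in mock, and none was assembled in the BMP2 library, where the gene was at 0.519 FPKM. Stc2 was assembled with longer ends than its RefSeq transcript of 1793 nt in all 3 libraries, at 4466 nt in the library labelled shKSRP, 3574 nt with BMP2 and 4467 nt in mock.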
